A study of Mus musculus with 8 samples.

Results

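The genes described are 9 genes of retinoid metabolism, namely Dhrs9, Dhrs3, Rdh10, Aldh1a1, Aldh1a2, Aldh1a3, Rbp4, Stra6 and Rarb. They were taken by their symbols from the deposited gene table, which lists 30387 genes, and all 9 have a line in it. Of the 9, 5 carry the KEGG annotation of retinol metabolism in that table (Dhrs9, Dhrs3, Rdh10, Aldh1a1 and Aldh1a2). The RNA came from primary white adipocytes of epididymal fat, taken from Ad-Yap/Taz-KO mice (KO) and their wild-type littermates (WT). In the KO mice a constitutive Cre driven by the adiponectin promoter deletes floxed Yap and Taz in adipocytes, so that the other cells of the fat keep both genes; the control genotype beyond "wild-type" was not given for this line. Mice of both genotypes were fed normal chow (NC) or a high-fat diet (HFD) for 4 weeks from week 5 of age in the description of the data set, whereas the study's methods give a later start. Each of the 4 groups holds 2 libraries, which the study describes as 2 mice, and all were males on the C57BL/6 background.

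Vitamin A travels in blood as retinol bound to RBP4, a carrier that liver and adipocytes secrete, and STRA6 is a membrane receptor that moves retinol from RBP4 into cells. Retinol is oxidized to retinal by short-chain dehydrogenases, of which RDH10 and DHRS9 run in this direction while DHRS3 reduces retinal back to retinol. The retinal dehydrogenases ALDH1A1, ALDH1A2 and ALDH1A3 then make retinoic acid, which acts through nuclear receptors such as RARB, itself a gene known to be induced by retinoic acid. In white fat, retinal and retinoic acid are known regulators of adipocyte differentiation and lipid use, and ALDH1A1 is the main retinal dehydrogenase of visceral adipocytes.

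The values are normalized counts, that is, the reads of each gene over a size factor of its library, which the authors rounded to whole numbers. They sum to between 14890264 and 20994246 per library, and 1 read is worth an estimated 0.795 to 1.135 normalized counts. The estimate is the step whose rounded multiples best match the whole numbers that occur in a library. The adipocyte markers Adipoq and Plin1 were high in all 8 libraries, with at least 13284 normalized counts of Adipoq. Of the targeted genes, Wwtr1, which encodes TAZ, was at 5594 and 4743 normalized counts in WT mice on NC against 2441 and 1957 in KO mice, and at 7121 and 6807 against 2060 and 2707 on HFD. Yap1 was at 2776 and 2717 against 1669 and 1699 on NC, and at 2468 and 2333 against 1549 and 2068 on HFD. Wwtr1 was called lower on both diets and Yap1 on NC only (adjusted p = 0.059 on HFD, limma), and both KO libraries lay below both WT libraries in each case. Markers of other cells also differed between the groups. The summed level of 10 macrophage markers was 5674 to 5710 normalized counts in WT mice on NC, 16365 to 28377 in KO mice on NC, 3315 to 3447 in WT mice on HFD and 28419 to 30378 in KO mice on HFD. The 8 adipocyte markers summed to 175007 to 189542, 143619 to 206662, 325697 to 332487 and 78957 to 158792 in the same order. On HFD 6 of 8 fibroblast and progenitor markers, 2 of 6 endothelial markers and 1 of 4 tested lymphocyte markers were called higher in KO mice and none lower, and on NC none of the 3 lists had a call. The markers of epididymal epithelium summed to 0 to 11 outside KO mice on HFD, and to 21 and 48 in KO HFD replicates 1 and 2. In bulk RNA, more or fewer cells of a type and more or less RNA per cell cannot be told apart. The 2 libraries of WT mice on HFD stood apart in another way, since their squared difference stayed at 4.72 to 5.86 times the Poisson expectation from low to high genes, while that of the other pairs rose from 4.62 to 6.23 times at low genes to 25.8 to 83.8 times at high ones. Whether they are separate mice is not settled by the labels, and results that rest on them are given also with both averaged to 1 sample.

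Genes were compared with limma on log2 of the normalized count plus 1, in 1 fit of the 4 group means to 18800 genes with a mean of at least 5. Calls needed an adjusted p, over all genes tested, of no more than 0.05 together with a log2 difference of 0.59 or more up or down. Errors of fold changes are standard errors. All 9 members passed the filter on low values, Dhrs9 only through the KO libraries and Stra6 with a mean of 5.25. With 2 libraries against 2, an exact permutation test of a single gene cannot go below a two-sided p of 0.333, so the calls rest on the spread shared across genes.

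Dhrs9 was close to absent from WT adipocyte preparations and present in those from KO mice on both diets. The gene (ENSMUSG00000027068) lies on the forward strand at chr2:69380445-69404533 of GRCm38. WT libraries held 2 and 1 normalized counts on NC and 2 and 0 on HFD. KO libraries held 176 and 199 on NC and 436 and 424 on HFD. Every KO library lay above every WT library, and both KO libraries on HFD lay above both on NC. The fitted log2 fold change of KO against WT was 6.26 ± 0.66 on NC (adjusted p = 1.1e-04, limma) and 7.96 ± 0.66 on HFD (adjusted p = 2.7e-06, limma). Because WT libraries were at or near 0, these fits depend on the number added before the logarithm and ranged from 4.36 to 6.95 on NC and from 5.61 to 9.87 on HFD with 8 or 0.1 in its place. Leaving out WT HFD replicate 1 or 2 gave 8.75 and 7.17. Summed over the libraries of a group, KO mice had 125 times the normalized counts of WT mice on NC (375 against 3, exact 95% binomial interval 42.4 to 609) and 430 times on HFD (860 against 2, interval 119 to 3556), intervals that cover counting error only.

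Within KO mice the Dhrs9 level on HFD was 2.29 times that on NC, a log2 difference of 1.20 ± 0.66 that was not called (adjusted p = 0.41, limma). The difference between the genotype effects on the diets was 1.70 ± 0.94 and was not called either (adjusted p = 0.22, limma). Its size was unsteady, at 2.49 without WT HFD replicate 1, 0.90 without WT HFD replicate 2 and 2.93 with a pseudocount of 0.1, and it was called in none of these fits. Macrophage markers were higher in the same libraries. Of the 10 markers, 9 were called higher in KO mice on each diet, Mertk being the exception, and Adgre1, which encodes the macrophage surface protein F4/80, was at 150 and 152 against 1699 and 922 normalized counts on NC and at 73 and 90 against 3314 and 3178 on HFD. Per 100 normalized counts of Adgre1, Dhrs9 was at 1.33 and 0.658 in WT mice on NC, at 10.4 and 21.6 in KO mice on NC, at 2.74 and 0 in WT mice on HFD and at 13.2 and 13.3 in KO mice on HFD. Relative to Adgre1 all KO libraries lay above all WT libraries, as they did relative to Csf1r and Cd68. Relative to Trem2 they did not, since Dhrs9 was at 28.6 per 100 in WT HFD replicate 1 against 18.7 and 47.6 in KO mice on NC and 28.6 and 41.01 in KO mice on HFD. The WT ratios rest on at most 2 counts each. The 3 genes most like Dhrs9 over the 8 libraries were Rab7b (Pearson's r = 0.99), which encodes a small GTPase of late endosomes, Ptprj (r = 0.99) and Clec7a (r = 0.99), which encodes the beta-glucan receptor dectin-1, out of 12093 genes with a mean of at least 50. Libraries of 1 group share genotype, diet and cell makeup, and these r values are a description. The part of macrophage RNA in the Dhrs9 level was not tested.

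**Figure D1:**
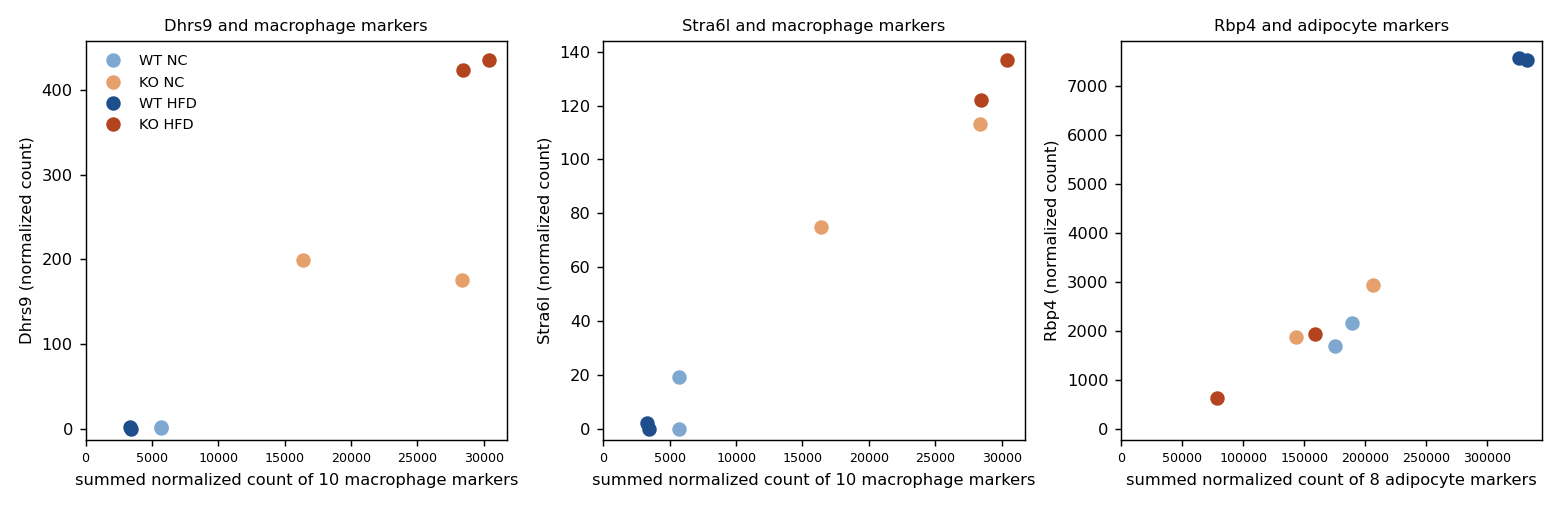
Normalized count of Dhrs9 and of Stra6l against the summed normalized count of 10 macrophage markers, and of Rbp4 against that of 8 adipocyte markers; each point is 1 of 8 libraries, coloured by genotype and diet. For Dhrs9 the 4 WT libraries lie at 0 to 2 with marker sums of 3315 to 5710, and the 4 KO libraries at 176 to 436 with marker sums of 16365 to 30378.

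The bases just before the RefSeq start site of Dhrs9 are shown because this gene had the largest fold change of the 9. They span chr2:69380212-69380461 of GRCm38.p6 on the forward strand, from 250 bases to 1 base before the start. The capitals mark the 2 motif matches of this window, TGACCT, the reverse complement of the hexamer AGGTCA, and TGACTCA, the AP-1 motif.

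Dhrs9: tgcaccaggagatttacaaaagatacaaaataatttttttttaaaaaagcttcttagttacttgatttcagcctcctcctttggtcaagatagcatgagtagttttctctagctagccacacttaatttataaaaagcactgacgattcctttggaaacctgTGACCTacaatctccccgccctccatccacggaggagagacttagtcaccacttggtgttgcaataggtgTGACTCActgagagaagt

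The hexamer AGGTCA, which retinoid receptors can bind in pairs, was searched with its variants, namely AGTTCA and also GGGTCA and finally GGTTCA. The search covered both strands of windows from 250 bases before to 50 bases after each start site. The motif of the TEAD partners of YAP and TAZ (GGAATG) and the AP-1 motif were searched in the same way. Of 32851 such windows, 43.7% held at least 1 hexamer, 14.7% the TEAD motif and 5.20% the AP-1 motif. The hexamer match in Dhrs9 begins 88 bases before the start and the AP-1 match 18 bases before it, across the start that the deposited table gives at 69380445. The TEAD motif was not in these 300 bases. Of the 9 members 7 have such a window, and Rdh10 and Aldh1a3 do not. Besides the matches shown, an upstream window of Aldh1a1 held the TEAD and AP-1 motifs and the window at its other start a hexamer, the windows of Rbp4 held an AP-1 motif and a hexamer, 1 window of Stra6 held a hexamer, and those of Dhrs3 and Aldh1a2 held none of these motifs. The matches are shared letters and no measure of binding.

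The genotypes were then compared on HFD, the condition under which the study asks what YAP and TAZ do in adipocytes. On this diet 6 of the 9 members were called, 3 higher in KO mice (Dhrs9, Aldh1a2 and Aldh1a3) and 3 lower (Rbp4, Aldh1a1 and Dhrs3). The members and the retinoid lists were chosen with earlier results of these data known. Counts of them called, here and below, are therefore a description. Over all 18800 genes 17.1% were called higher and 15.1% lower, and the median log2 fold change was 0.53 over the members and 0.09 over all genes. With all libraries scaled to the same total the median of all genes was 0.48, and the split of calls moved from 3213 higher and 2840 lower to 4622 higher and 1365 lower. No member changed direction under that scaling.

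**Figure D2:**
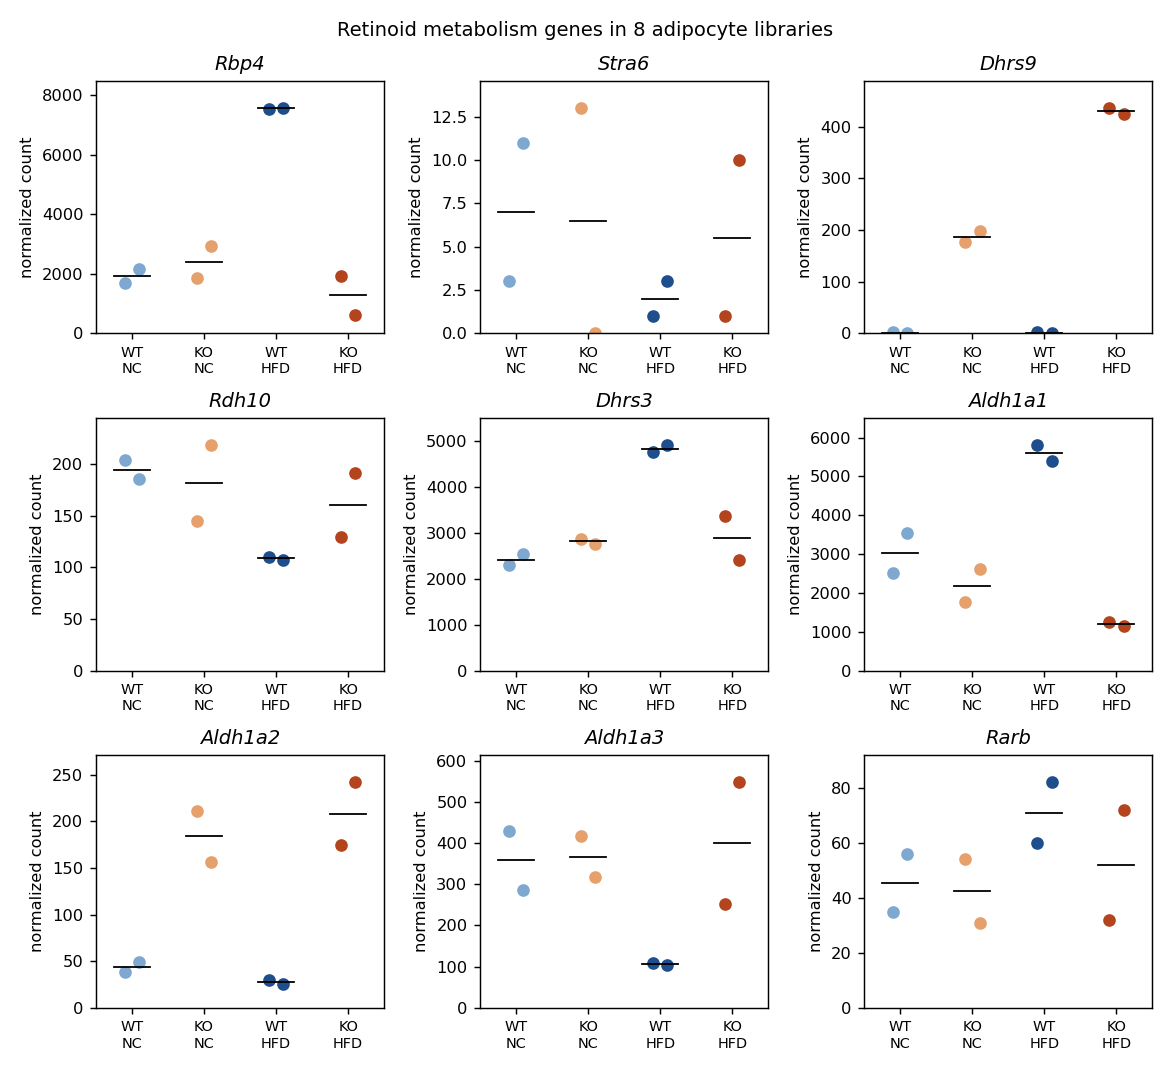
Normalized count of each of the 9 members (vertical axes, each from 0) in WT and Ad-Yap/Taz-KO (KO) mice on NC or HFD; points are the 2 libraries of a group and the line is their mean. Rbp4, Dhrs3 and Aldh1a1 peak in WT mice on HFD, Dhrs9 and Aldh1a2 are high in KO mice on both diets, and the 2 libraries of KO mice on HFD lie far apart for Rbp4 (1942 and 618).

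The carrier gene Rbp4 (ENSMUSG00000024990, reverse strand, chr19:38116620-38125321) had the largest fall of the 9 on HFD. Without KO HFD replicate 2 the fall of Aldh1a1 was larger (log2 -2.15 against -1.96). It was at 7546 and 7574 normalized counts in WT mice and at 1942 and 618 in KO mice. Both KO libraries were far below both WT libraries but also lay far from each other. The log2 fold change was -2.79 ± 0.39 (adjusted p = 1.6e-04, limma), and it was -3.61 without KO HFD replicate 1 and -1.96 without KO HFD replicate 2, called in both cases. Adipocyte markers were lower in the same libraries, with 7 of 8 called lower in KO mice on HFD and none on NC. Per 100 normalized counts of Adipoq, Rbp4 was at 13.8 and 14.2 in WT mice and at 7.11 and 4.65 in KO mice on HFD. Per 100 of Plin1 it was at 13.3 and 13.2 against 8.21 and 4.97. It thus lay lower relative to these markers, but the outcome depends on the marker. Lep fell more than Rbp4 (log2 -4.45), and Fabp4 was not called (-0.32). The part of the adipocyte share in the level of Rbp4 was not tested.

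Stra6 (ENSMUSG00000032327, forward strand, chr9:58063788-58153996), the receptor gene, was hardly detected. It was at 3 and 11 normalized counts in WT mice and 13 and 0 in KO mice on NC, and at 1 and 3 against 1 and 10 on HFD. The groups overlapped in every comparison, and no difference was detectable at this depth. The log2 fold change on HFD was 0.73 ± 1.49 (adjusted p = 0.74, limma). Its relative Stra6l, which encodes the RBP4 receptor RBPR2, behaved differently. It was at 2 and 0 normalized counts in WT mice on HFD and at 137 and 122 in KO mice, a summed ratio of 130 (exact 95% binomial interval 35.5 to 1075, counting error only) and a fitted log2 fold change of 6.23 ± 1.13 (adjusted p = 0.0012, limma). With so few WT reads the fitted size was 8.14 with a pseudocount of 0.1, 3.94 with one of 8, and 7.03 and 5.44 without WT HFD replicate 1 and 2, and it stayed called in these fits. On NC it was at 0 and 19 against 113 and 75, a summed ratio of 9.89 (interval 6.16 to 16.8), with all WT reads on this diet in WT NC replicate 2. The NC call (log2 4.38 ± 1.13, adjusted p = 0.045, limma) was lost in 5 of 6 alternative settings and in 7 of 8 fits that left out 1 library, without WT NC replicate 2 being the exception. Its size went from 2.22 without WT NC replicate 1 to 6.54 without WT NC replicate 2. Stra6l was high in the same 4 libraries as Dhrs9 and the macrophage markers, and like Dhrs9 it passed the filter on low values only through the KO libraries. Per 100 normalized counts of Adgre1 it was at 0 and 12.5 in WT mice and 6.65 and 8.13 in KO mice on NC. On HFD these ratios were 2.74 and 0 against 4.13 and 3.84. Unlike for Dhrs9, WT NC replicate 2 lay above every KO library. The part of macrophage RNA in the Stra6l level was not tested.

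The 3 short-chain dehydrogenases took different courses. Dhrs3 (ENSMUSG00000066026, forward strand, chr4:144892827-144928209), which encodes the enzyme that returns retinal to retinol, was at 4764 and 4909 normalized counts in WT mice and at 3377 and 2413 in KO mice on HFD. Both KO libraries were lower, by 0.76 ± 0.17 on the log2 scale (adjusted p = 0.0042, limma). The call was lost without WT HFD replicate 2 (-0.74, adjusted p = 0.051, limma), without KO HFD replicate 2 (-0.52) and with all libraries scaled to the same total (-0.38). Per 100 normalized counts of Adipoq, Dhrs3 went the other way, from 8.69 and 9.21 in WT mice to 12.4 and 18.2 in KO mice. This depended on the marker, since Fabp4 differed less than Dhrs3 (log2 -0.32, not called). Rdh10 (ENSMUSG00000025921, forward strand, chr1:16105774-16133734), the retinol dehydrogenase of embryonic retinoic acid synthesis, was at 110 and 107 against 129 and 191, both KO libraries above both WT libraries, and was not called (0.53 ± 0.30, adjusted p = 0.20, limma). With all libraries scaled to the same total it was called (0.91, adjusted p = 0.042, limma).

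The 3 retinal dehydrogenases did not move together. Aldh1a1 (ENSMUSG00000053279, forward strand, chr19:20601961-20643462) was at 5805 and 5392 normalized counts in WT mice on HFD and at 1262 and 1161 in KO mice, lower by 4.62 times (log2 -2.21 ± 0.21, adjusted p = 6.8e-06, limma). The groups lay far apart and the libraries within each close together. Relative to Adipoq it was at 10.6 and 10.1 per 100 in WT mice and at 4.62 and 8.74 in KO mice. Another adipocyte marker, Lep, fell more than Aldh1a1 did (log2 -4.45), so this ratio depends on the marker. Aldh1a7, a close paralog next to it with which reads may have been confused, was at 5789 and 6085 against 1080 and 506 (log2 -3.003 ± 0.26, adjusted p = 4.1e-06, limma). Both genes are uncertain to the extent that reads aligned to several places were excluded.

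Aldh1a2 (ENSMUSG00000013584, forward strand, chr9:71215789-71296243) was higher in KO mice, at 30 and 25 normalized counts in WT mice and at 175 and 242 in KO mice fed HFD. The log2 difference came to 2.86 ± 0.37 (adjusted p = 8.9e-05, limma). Aldh1a3 (ENSMUSG00000015134, reverse strand, chr7:66390890-66427517) was at 108 and 104 against 251 and 547, also higher in both KO libraries, with a log2 fold change of 1.80 ± 0.34 (adjusted p = 0.0014, limma). The KO libraries of Aldh1a3 lay far apart, the higher being KO HFD replicate 2, the library with the lowest level of Rbp4. Aldh1a2 is a known gene of mesothelium, and the mesothelial marker Wt1 was at 46 and 54 in WT mice and at 310 and 531 in KO mice on HFD. The other markers of that list did not follow Wt1, since of 7 tested only Wt1 was called higher and Msln was called lower, at 15 and 19 against 0 and 2. Per 100 normalized counts of Wt1, Aldh1a2 was at 65.2 and 46.3 in WT mice and at 56.5 and 45.6 in KO mice on HFD, so these ranges overlapped. On NC the ratios were 26.8 and 32.5 against 87.9 and 74.1 and did not overlap. The genes most like Aldh1a2 over the 8 libraries were Soat1 (r = 0.99), an enzyme of cholesterol ester synthesis, Lilr4b (r = 0.99), an immune receptor, and Gm14636 (r = 0.99), and r between Aldh1a2 and Dhrs9 was 0.97. Their sources among the cells were not tested.

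Rarb (ENSMUSG00000017491, reverse strand, chr14:16430842-16575472) was at 60 and 82 normalized counts in WT mice and at 32 and 72 in KO mice on HFD, and the groups overlapped. It differed by a log2 value of -0.54 ± 0.52 (adjusted p = 0.46, limma). Of its exon bases, 34.1% also lie in exons of Top2b on the opposite strand, and the strand setting of the counting was not given. Since reads that met several genes were left out, counting without strand would leave the reads of these shared bases out of the Rarb count. The start of this gene is shown because it carries a well known response element of retinoic acid. The 120 bases lie at chr14:16575477-16575596 of GRCm38.p6 on the reverse strand, from 120 bases to 1 base before the RefSeq start. The capitals mark a single hexamer, the direct repeat of 2 hexamers spaced by 5 bases, and the reverse complement of the TEAD motif.

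Rarb: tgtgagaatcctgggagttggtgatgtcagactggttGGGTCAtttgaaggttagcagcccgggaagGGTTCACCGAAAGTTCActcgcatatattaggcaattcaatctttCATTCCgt

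The direct repeat begins 53 bases before the start, and such a repeat occurred in 32 of the 32851 windows (0.097%). Repeats spaced by 1 or 2 bases occurred in 0.222% and 0.268% of the windows and in no window of the members. The values of this gene overlapped between the genotypes on both diets.

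On NC only 2 of the 9 members were called, both higher in KO mice, Dhrs9 as given above and Aldh1a2. Over all genes 3.21% were called higher and 1.5% lower on this diet. No member was called lower by limma, and at an unadjusted p under 0.05 there was 1, Aldh1a1, where 7.71% of all genes were lower at that threshold. Aldh1a2 was at 38 and 49 normalized counts in WT mice and at 211 and 157 in KO mice, a log2 fold change of 2.05 ± 0.37 (adjusted p = 0.0052, limma). Its groups did not overlap, and without WT NC replicate 1 the call was lost (1.87, adjusted p = 0.059, limma). Aldh1a1 was at 2514 and 3540 against 1760 and 2622 (log2 -0.47 ± 0.21, adjusted p = 0.26, limma), where 1 KO library lay within the WT range. Rbp4 was at 1695 and 2156 against 1865 and 2935 (0.29 ± 0.39, adjusted p = 0.77, limma), and the groups overlapped. Dhrs3, at 2292 and 2545 against 2863 and 2761, had both KO libraries above both WT libraries but a log2 difference of 0.22 ± 0.17. The groups of Rdh10 (204 and 185 against 145 and 218), Aldh1a3 (429 and 286 against 416 and 317) and Rarb (35 and 56 against 54 and 31) overlapped.

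**Figure D3:**
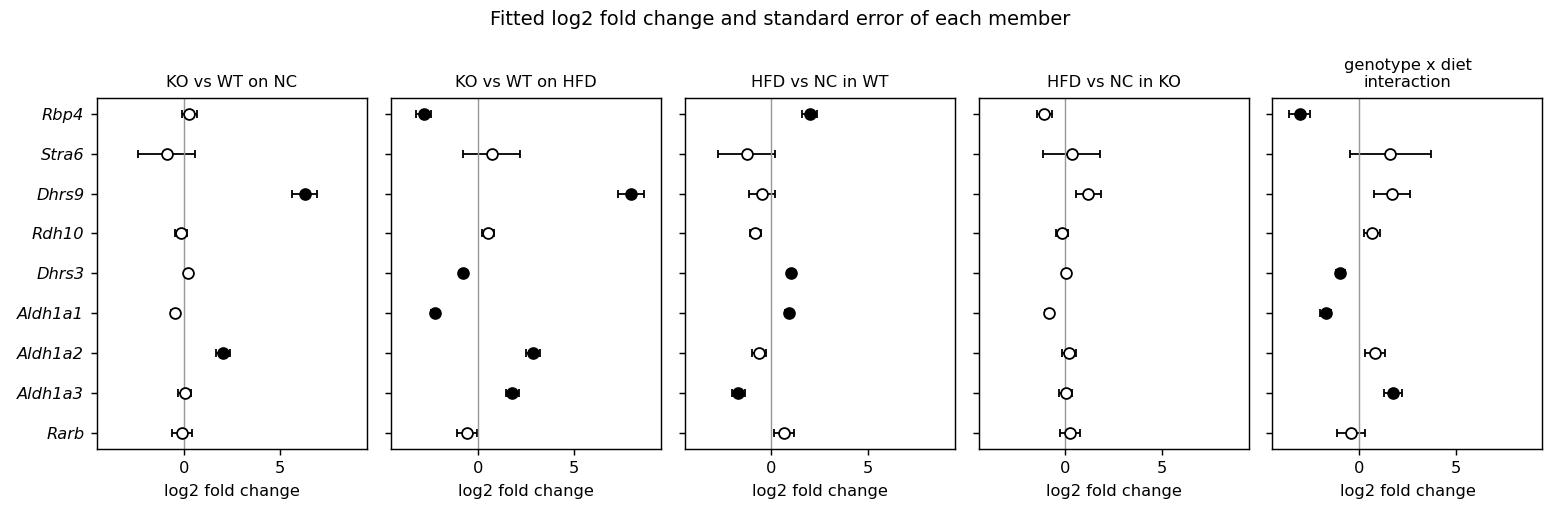
Fitted log2 fold change (horizontal axis) of each member in the 5 contrasts; points are estimates from limma, bars are standard errors, and filled points were called. On HFD 6 members are called in KO against WT mice, on NC 2, and in KO mice no member is called between the diets.

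The diets were compared within each genotype. In WT mice 3 members were called higher on HFD, against 8.74% of all genes, and 1 lower, against 9.22%. Rbp4 rose from 1695 and 2156 to 7546 and 7574 normalized counts, 3.95 times (log2 1.98 ± 0.39, adjusted p = 0.0053, limma). Dhrs3 rose from 2292 and 2545 to 4764 and 4909 (log2 1.00 ± 0.17, adjusted p = 0.0026, limma), and Aldh1a1 from 2514 and 3540 to 5805 and 5392 (log2 0.91 ± 0.21, adjusted p = 0.011, limma). The groups of these 3 genes did not overlap. Per 100 normalized counts of Adipoq, Rbp4 was at 4.82 and 6.46 on NC and at 13.8 and 14.2 on HFD. Dhrs3 was at 6.52 and 7.62 against 8.69 and 9.21, and Aldh1a1 at 7.16 and 10.6 against 10.6 and 10.1. Relative to this marker Aldh1a1 alone overlapped. The ratios depend on the marker, since Lep rose more than Rbp4 (log2 2.36) and Cidec about as much as Dhrs3 (0.98). In the same libraries 8 of 10 macrophage, 3 of 8 fibroblast and progenitor and 3 of 6 endothelial markers were called lower on HFD and 2 of 8 adipocyte markers higher, and their part in these differences was not tested. Aldh1a3 fell from 429 and 286 to 108 and 104 (log2 -1.72 ± 0.34, adjusted p = 0.0056, limma). Rdh10, at 204 and 185 against 110 and 107, was lower in both HFD libraries without being called (log2 -0.83 ± 0.30, adjusted p = 0.070, limma), and it was called with libraries scaled to the same total (-1.25) and without KO NC replicate 1 (-0.83). Aldh1a2, at 38 and 49 against 30 and 25, was also lower in both (log2 -0.64 ± 0.37, adjusted p = 0.24, limma).

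These calls rest on the WT libraries named here. With both WT HFD libraries averaged to 1 sample only Dhrs3 stayed called, and Rbp4 (adjusted p = 0.057, limma), Aldh1a3 (adjusted p = 0.056, limma) and Aldh1a1 (adjusted p = 0.098, limma) missed the limit. Without WT NC replicate 1 none of the 4 was called, with log2 values of 1.81 for Rbp4, 0.93 for Dhrs3, 0.66 for Aldh1a1 and -1.42 for Aldh1a3; without WT HFD replicate 2 only Dhrs3 was called, and without WT HFD replicate 1 Aldh1a1 was lost (0.85). Scaling to the same total moved the median log2 difference of all genes between the diets in WT mice from -0.08 to -0.48 and the split of calls from 1643 higher and 1734 lower to 469 and 3569, and Dhrs3 (0.588) and Aldh1a1 (0.49) were then not called.

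In KO mice no member was called between the diets, where 0.383% of all genes were called higher and 0.691% lower. That background is itself unsteady, since the 202 genes called became 938 without KO NC replicate 1 and 14 without KO NC replicate 2. At an unadjusted p under 0.05 there were 2, Aldh1a1 and Rbp4, both lower on HFD, where 7.79% of all genes were higher and 7.66% lower at that threshold. Aldh1a1 went from 1760 and 2622 to 1262 and 1161 normalized counts (log2 -0.83 ± 0.21, adjusted p = 0.076, limma), and without KO NC replicate 1 it was called (-1.11, adjusted p = 0.018, limma). Rbp4 went from 1865 and 2935 to 1942 and 618 (log2 -1.09 ± 0.39, adjusted p = 0.19, limma), a difference that was -1.92 and called without KO HFD replicate 1 and -0.27 without KO HFD replicate 2. The size of the Rbp4 difference thus depended on which KO HFD library was in the fit. Dhrs3 (2863 and 2761 against 3377 and 2413), Aldh1a2 (211 and 157 against 175 and 242) and Aldh1a3 (416 and 317 against 251 and 547) overlapped between the diets.

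The difference of the genotype effects between the diets was tested as the interaction, which is also the difference of the diet effects between the genotypes. One member was called higher, against 8.69% of all genes, and 3 lower, against 8.73%. Aldh1a3 had an interaction of 1.74 ± 0.47 on the log2 scale (adjusted p = 0.027, limma), its level being low in WT mice on HFD and overlapping in the other 3 groups. Rbp4 (-3.08 ± 0.54, adjusted p = 0.0056, limma), Aldh1a1 (-1.73 ± 0.29, adjusted p = 0.0046, limma) and Dhrs3 (-0.98 ± 0.24, adjusted p = 0.018, limma) were highest in WT mice on HFD. Of the markers, 7 of 8 of adipocytes were called lower in the interaction, and 9 of 10 of macrophages, 7 of 8 of fibroblasts and progenitors and 5 of 6 of endothelium higher. Scaled to the same total, interaction calls over all genes went from 1633 higher and 1641 lower to 2611 and 617, and Dhrs3 (-0.55) was not called. With both WT HFD libraries averaged, Rbp4 and Aldh1a1 stayed called, while Dhrs3 (adjusted p = 0.086, limma) and Aldh1a3 (adjusted p = 0.092, limma) did not. The call of Rbp4 was lost without WT NC replicate 1 (-2.90, adjusted p = 0.050, limma) and with no filter on low values, and its value was -3.90 and -2.25 without KO HFD replicate 1 and 2. The call of Dhrs3 was lost without WT NC replicate 1 (-0.90) and without WT HFD replicate 1 (-1.001) or 2 (-0.96), and that of Aldh1a3 without WT NC replicate 1 (1.45), KO NC replicate 2 (1.55), WT HFD replicate 1 (1.77) or 2 (1.72) or KO HFD replicate 2 (1.18).

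To compare the members with each other, normalized counts were divided by the exon length of each gene. On NC, levels per kb of exon were in the order Rbp4, Dhrs3 and Aldh1a1 in both genotypes, at 1434, 826 and 613 in WT mice and at 1787, 961 and 444 in KO mice, with no overlap between neighbours. In WT mice on HFD the same 3 genes stood at 5629, 1652 and 1134, and the next, Rdh10, at 26.1. In KO mice on HFD Dhrs3 (989) and Rbp4 (953) could not be ordered, since their libraries overlapped, and Aldh1a1 followed at 245. Dhrs9 was last of the 9 in WT mice on NC (0.351) and overlapped Stra6 at the low end in WT mice on HFD (0.234 and 0.344). It was at 43.8 in KO mice on NC, where it overlapped Rdh10 (43.6), and at 100 in KO mice on HFD, where Dhrs9, Aldh1a2 (92.1) and Aldh1a3 (86.4) overlapped in turn.

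**Figure D4:**
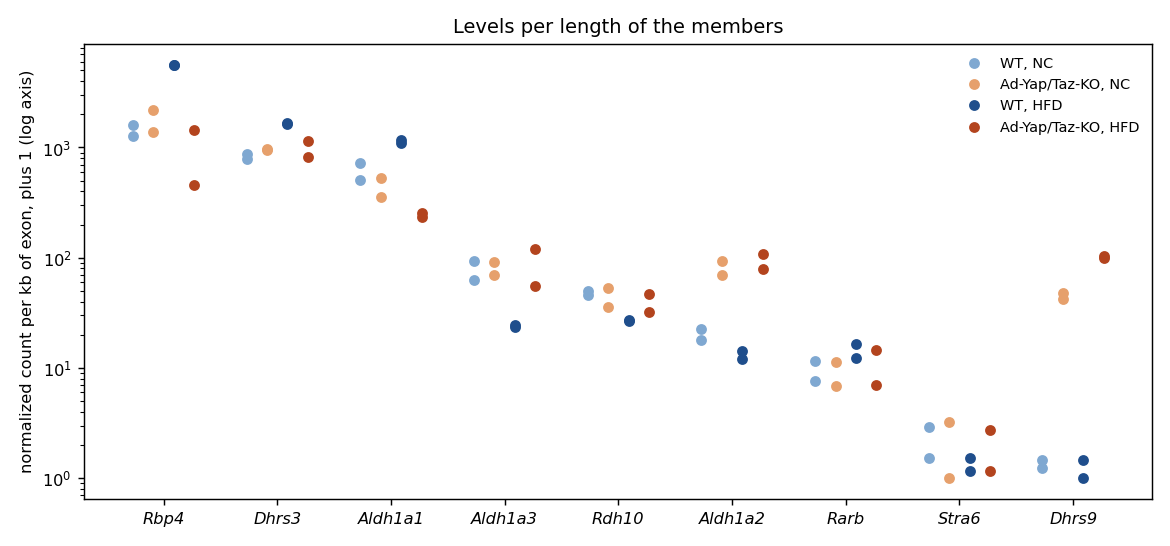
Normalized count per kb of exon, plus 1, on a log axis for the 9 members, ordered by their level in WT mice on NC; each point is 1 library, coloured by genotype and diet. Rbp4, Dhrs3 and Aldh1a1 stand above the rest in every group, and Dhrs9 lies at or near the bottom in WT mice and at 43.8 and 100 per kb in KO mice on NC and HFD.

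The retinal dehydrogenases can be set side by side in the same way. In WT mice on HFD Aldh1a1 made up 97.0% and 97.0% of the summed level per kb of Aldh1a1, Aldh1a2 and Aldh1a3, and in KO mice on HFD 66.0% and 51.1%. On NC its share was 82.3% and 89.6% in WT mice and 66.0% and 79.4% in KO mice. The share of Aldh1a2 was 2.71% and 2.70% in WT mice and 17.3% and 10.4% in KO mice on NC, and 1.09% and 0.981% against 20.0% and 23.2% on HFD. In every KO library Aldh1a1 had a smaller share and Aldh1a2 a larger one than in any WT library. The summed level itself was 1212 and 1126 per kb in WT mice on HFD and 387 and 461 in KO mice, and 619 and 801 against 540 and 669 on NC, where the genotypes overlapped.

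**Figure D5:**
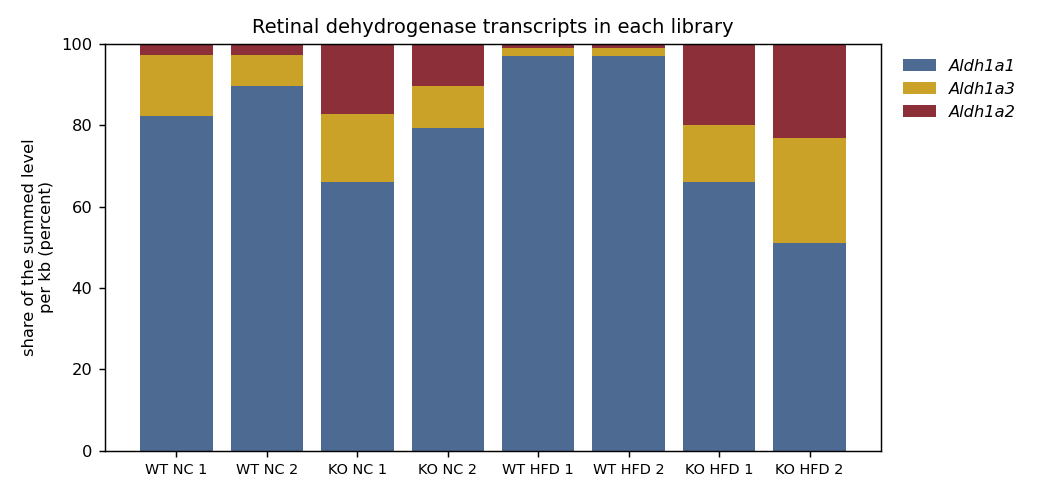
Share in percent of Aldh1a1, Aldh1a3 and Aldh1a2 in their summed normalized count per kb of exon (vertical axis), 1 bar per library. Aldh1a1 makes up 97.0% in both libraries of WT mice on HFD and 66.0% and 51.1% in those of KO mice on HFD.

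The other genes of retinoid handling were taken from 6 lists with 53 genes in all, of which 47 have a line in the table and 38 were tested. In KO against WT mice on HFD 8 were called higher and 10 lower, against the 17.1% and 15.1% of all genes given above, and the lists had a median log2 fold change of -0.24. Among carriers and binding proteins, 4 of 6 tested were called higher and none lower. Besides Stra6l, given above, these were Rbp7, a cellular retinol-binding protein (107 and 159 against 257 and 418 normalized counts, log2 1.32 ± 0.42), Crabp2, which carries retinoic acid to its receptors (6 and 12 against 26 and 45, log2 1.89 ± 0.67), and Fabp5, which binds fatty acids and retinoic acid (2551 and 2562 against 4702 and 3455, log2 0.66 ± 0.17). Among retinol and retinal oxidoreductases, 2 of 8 were called higher, Rdh5 (136 and 136 against 290 and 492, log2 1.47 ± 0.27) and Rdh13 (183 and 166 against 411 and 378, log2 1.17 ± 0.22). The 4 called lower were Rdh14 (log2 -1.06 ± 0.29), Adh5 (-0.86 ± 0.21), Adh1 (-0.61 ± 0.19) and Dhrs4 (-0.60 ± 0.21). None of these 4 stayed called with all libraries scaled to the same total.

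Of the nuclear receptors and their coregulators, 3 of 10 were called lower and 1 higher in KO mice on HFD. Rxra, the partner receptor of many nuclear receptors, fell from 4529 and 5321 to 1945 and 1308 normalized counts (log2 -1.62 ± 0.22, adjusted p = 1.4e-04, limma). Rxrg (181 and 351 against 136 and 72, log2 -1.34 ± 0.40) and the corepressor gene Nrip1 (11529 and 12347 against 5835 and 4125, log2 -1.28 ± 0.24) were also lower, and Rara (635 and 502 against 949 and 1104, log2 0.86 ± 0.22) was higher. Among genes that retinoic acid is known to affect, Hic1 was called higher (130 and 115 against 311 and 359, log2 1.44 ± 0.31) and Pck1, which makes phosphoenolpyruvate for glycerol synthesis, lower (33457 and 33715 against 15662 and 10313, log2 -1.40 ± 0.22), while the other 4 tested were not called. Of the retinyl ester genes only Lipe, the hormone-sensitive lipase, was called (23066 and 23668 against 11207 and 5523, log2 -1.57 ± 0.27). Lipe is also on the list of adipocyte markers. That list had a median log2 fold change of -1.54 in the same comparison, with Adipoq at -1.505 and Plin1 at -1.73. The part of the adipocyte share in the falls of Rxra, Rxrg, Nrip1, Pck1 and Lipe was not tested. The head enzymes of storage and breakdown were low, Lrat at 0 to 6, Cyp26a1 at 0 to 21 and Cyp26b1 at 54 to 123 normalized counts over the 8 libraries, and Cyp26a1 and Cyp26b1 were called in no contrast. Of the 18 called genes, 9 stayed called in all 6 alternative settings and all 8 fits that left out 1 library, namely Stra6l, Rdh5, Rdh13, Aldh1a7, Lipe, Rxra, Nrip1, Hic1 and Pck1. With both WT HFD libraries averaged, 9 of the 18 were lost. Scaled to the same total, 5 were lost, all of them called lower, namely Rxrg and the 4 oxidoreductases, while the split over all genes moved to higher calls as given above.

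On NC 3 genes of the lists were called in KO mice, Stra6l and Fabp5 (1347 and 1356 against 2807 and 2340, log2 0.92 ± 0.17) higher and Rarg (740 and 749 against 492 and 365, log2 -0.81 ± 0.21) lower, out of 38 tested and against 3.21% and 1.5% of all genes. The call of Fabp5 was lost without either WT NC library (log2 0.92 and 0.93) and that of Rarg in 5 of 6 alternative settings. In WT mice on HFD against NC 5 genes were called higher, Aldh1a7 (1178 and 1327 against 5789 and 6085), Rdh11 (144 and 127 against 253 and 275), Fabp5, Lipe and Dhrs4, and 4 lower, Hic1 (395 and 376 against 130 and 115), Rdh5 (405 and 390 against 136 and 136), Rarg (740 and 749 against 448 and 336) and Rara (982 and 829 against 635 and 502). Over all genes 8.74% were called higher and 9.22% lower. Scaled to the same total, 4 of the 5 higher calls were lost, those of Rdh11, Fabp5, Lipe and Dhrs4. Of these 9 only Aldh1a7 stayed called in every alternative setting and left-out fit, and 7 were lost with both WT HFD libraries averaged. In KO mice no gene of the lists was called between the diets by limma, and 11 of 38 had an unadjusted p under 0.05, 3 of them higher on HFD and 8 lower, against 7.79% and 7.66% of all genes at that threshold.

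Likeness over the 8 libraries was also taken for the other members, as Pearson's r of log2 values with the same 12093 genes and as a description only. Rbp4 was most like 2610507B11Rik, Mocs2 and Mlec (r = 0.996, 0.996 and 0.995), and Aldh1a1 was most like Rnd3, Dst and Mxd4 (r = 0.997, 0.994 and 0.993). Rnd3 was at 6638 and 6436 normalized counts in WT mice on HFD and at 1623 and 1664 in KO mice on HFD, next to 5805 and 5392 against 1262 and 1161 for Aldh1a1. Dhrs3 was most like Gsk3b, a kinase that insulin inhibits, Unc119 and Pigs (r = 0.994, 0.992 and 0.991), and Aldh1a3 was most like Taf5, Cacna1c and Vwa3a (r = 0.989, 0.989 and 0.988). The nearest genes of Rdh10 (Acin1, Gm27014 and Gng5), Rarb (Tmx3, Kdelc2 and Dnajc18) and Stra6 (Slc18a2, Aspn and Flt4) had r values of 0.941 to 0.974. Among the members themselves, r was 0.86 between Rbp4 and Dhrs3, 0.88 between Rbp4 and Aldh1a1 and -0.93 between Rbp4 and Aldh1a3.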

How the data were processed

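The deposited table holds 1 score per gene and library, neither a raw count nor a standard unit: the authors trimmed single-end reads with Reaper, aligned them with STAR 2.5.2b to GRCm38, counted them on exons with featureCounts 1.5.1, leaving out reads that met several genes or places, and divided by size factors, rounding to whole numbers. DESeq2 1.14.1 is named in the submitters' processing notes. Because of the rounding no count model was run here. The strand setting of the counting was not given in the sources used here. The estimated worth of 1 read gives a depth of 14.0 to 22.3 M reads on genes per library, and reads carry no molecular identifiers.

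The 9 members and the lists were chosen with earlier results of these data known. Samples were grouped by the genotype and diet of their labels. Differences were fitted with limma 3.58.1 (trend) under R 4.3.3, after adding 1 to each value and taking log2, for 18800 genes with a mean of at least 5, as 4 group means over 8 libraries; all adjusted p-values are from that fit, by Benjamini-Hochberg over these genes in each of 5 contrasts. The fit was tested on simulated data. Named are all members, the targeted genes, 7 marker lists and the 3 genes most like each member. Of 6 retinoid lists, those genes are named that were called with a mean of at least 50. Some genes at the head of the pathway, such as Crabp2, Lrat and Cyp26a1, are named whatever their mean. Of the 53 list genes, Rbp3, Ttr, Rdh7, Rdh9, Rpe65 and Cdx1 were not analysed here. Some list genes are counted with their list but not reported here by name.

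Exon lengths and gene overlaps came from GENCODE vM21 (30259 of 30387 identifiers found) and start site sequences from RefSeq (GRCm38.p6, 7 of 9 members). Count intervals are exact binomial at 95%, and tables were made with Python 3.11.15. Alternatives were a pseudocount of 0.1 or 8, no filter, scaling to the same total, the WT HFD libraries averaged, the replicate number as a block, and leaving out each library. Same-numbered replicates were checked for shared deviations, and r between groups was -0.3 to 0.108, so the numbers were not taken as pairs.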

Additional observations from a re-analysis of the deposited data

Results flagged for a closer look

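The effect of the genotype differed between the diets, by the test of the interaction itself (limma, log2 scale, HFD minus NC), for 4 of the 9 members, 1 positive and 3 negative, where 8.69% of all genes tested were called positive and 8.73% negative. In the same test 7 of 8 adipocyte markers were negative and 9 of 10 macrophage markers positive, and their part in these values was not tested. The interaction was -3.08 for Rbp4, -1.73 for Aldh1a1, -0.98 for Dhrs3 and 1.74 for Aldh1a3. The calls of Dhrs3 and Aldh1a3 were lost with both WT HFD libraries averaged to 1 sample, and the cause was not tested.

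The same test was passed by 10 of the 38 other genes of retinoid handling tested, 4 positive and 6 negative, against the same background. The interaction was positive for Rdh5 (1.82), Hic1 (1.82), Rara (1.145) and Rarg (1.05). It was negative for Aldh1a7 (-2.93), Lipe (-1.59), Pck1 (-1.54), Rdh14 (-1.41), Nrip1 (-1.31) and Rxra (-1.17). Lipe is also counted among the adipocyte markers. Only Aldh1a7 stayed called in all 6 alternative settings and all 8 fits without 1 library. Groups of 2 libraries were too small to test for outlying samples.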

How the results depend on the processing

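The calls of Dhrs9 on both diets, and on HFD those of Aldh1a1, Aldh1a2, Aldh1a3 and Rbp4, held in all 6 alternative settings and all 8 fits without 1 library. Of the member values under the alternative settings, 253 kept direction and side of the threshold, 14 lost and 2 gained a call, and 1 turned, Stra6 between the diets in KO mice (-0.026 with a pseudocount of 8). Members called between the diets in WT mice fell from 4 to 2 with no filter and to 1 with the WT HFD libraries averaged, and those with an interaction from 4 to 1 and 2; averaging also cut the calls over all genes from 6053 to 3521 (KO against WT on HFD), from 3377 to 632 (diets in WT mice), from 202 to 41 (diets in KO mice) and from 3274 to 678 (interaction). No filter gave 438 calls in place of 886 for the genotypes on NC, 1701 for the diets in WT mice, 3 for the diets in KO mice and 721 for the interaction. Leaving out 1 library gave 1 to 2 called members for the genotypes on NC, 0 to 5 for the diets in WT mice, 0 to 1 for those in KO mice and 1 to 4 for the interaction. Over all genes these fits gave 3692 to 6377 calls for the genotypes on HFD, 381 to 1050 on NC, 613 to 3854 for the diets in WT mice, 14 to 938 for those in KO mice and 482 to 4192 for the interaction, so the shares of all genes called move as well. The same fits turned the direction of uncalled values. Their ranges were, for KO against WT on HFD, -1.108 to 0.037 (Rarb), and on NC -0.419 to 0.165 (Rdh10), -0.24 to 0.343 (Aldh1a3), -0.036 to 0.618 (Rbp4), -1.681 to 1.015 (Stra6) and -0.501 to 0.28 (Rarb). For the diets they were -1.292 to 0.292 (Dhrs9) in WT mice, and in KO mice -0.22 to 0.264 (Dhrs3), -0.471 to 0.114 (Rdh10), -0.056 to 0.409 (Aldh1a2), -0.531 to 0.59 (Aldh1a3), -1.578 to 1.556 (Stra6) and -0.346 to 0.799 (Rarb), and for the interaction -0.285 to 2.848 (Stra6) and -0.998 to 0.148 (Rarb). Fewer samples and, without the filter, more genes enter these fits, and other causes were not tested. Stra6 fell under the filter in 3 of the 8 fits. With the replicate block, 6, 2, 4, 0 and 4 members were called as without it, while calls over all genes for the diets in KO mice fell from 202 to 112, as they did with a pseudocount of 0.1, and a pseudocount of 8 gave 330; the block changed no other count by more than 1.5 times. At the depth of these libraries the WT level of Dhrs9 was at most 2 normalized counts and Stra6 at most 13.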
